A study of Oryza sativa Japonica Group with 18 samples.

Results

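PHR2, PHR3, PHO1;2, PHO1;3 and MGD2 are 5 rice genes of phosphate (Pi) signalling, root-to-shoot Pi export and membrane lipid remodelling. They were chosen by name, and every probe set that the array's platform annotation pairs with 1 of them alone was followed in all 6 groups. This gave 8 probe sets of the 57258 on the array that are not controls, and 5 genes of the 17905 with a paired probe set. PHO1;2 had 3 probe sets (called here the brightest, the intermediate and the dim one), PHR2 had 2 (the brighter and the dimmer one), and PHR3, PHO1;3 and MGD2 had 1 each. In the RefSeq gene table PHR2 is on chromosome 7, PHR3 and PHO1;2 are on chromosome 2, PHO1;3 is on chromosome 6 and MGD2 is on chromosome 8.

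Transcript signals were measured in rice, cultivar Nipponbare, on 18 Affymetrix arrays. The groups were roots of pho2 plants (knockout of OsPHO2), roots of gi plants (knockout of OsGIGANTEA) and roots of wild-type (WT) plants, and shoots of the same 3 genotypes, with 3 arrays each. All plants were 21 days old, had spent 2 days in tap water for germination and 19 days in hydroponic medium sufficient in Pi, and were kept under a 12 h photoperiod; no group was starved of Pi. The labels do not state the mutant alleles, the number of lines, the hour of harvest or whether the 3 arrays of a group came from separate plants, and the p-values therefore cover array-to-array spread alone, which may be technical.

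As background, PHR proteins are MYB-type transcription factors that bind the promoters of Pi starvation genes, and PHR2 is the best known of them in rice. Under sufficient Pi, SPX-domain proteins bind PHR proteins and hold them back. PHO2 is a ubiquitin-conjugating enzyme, known in Arabidopsis to target the Pi exporter PHO1 and Pi transporters for degradation, and GIGANTEA (GI) works with the circadian clock and is best known from the control of flowering. PHO1 proteins export Pi from cells, and rice PHO1;2 is known for loading Pi into the root xylem. MGD enzymes make monogalactosyldiacylglycerol, a galactolipid that serves plastid membranes and is a precursor of lipids that replace phospholipids when Pi is short. The comparisons address whether transcripts of these regulators and effectors differ when PHO2 or GI is lost, and how they are divided between root and shoot.

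The labels were checked on the arrays before the members were compared. GI had a signal of 1.36 to 2.19 in gi roots and 5.43 to 44.6 in gi shoots, against 7007 to 7393 in WT roots and 9868 to 11521 in WT shoots. PHO2 carries no name in the tables used and was not analysed here. Of 8 root marker genes, 7 had all root arrays above all shoot arrays, and of 9 shoot marker genes, 8 had all shoot arrays above all root arrays. The summed signal of the shoot markers was 7469 to 14870 in pho2 roots, 12044 to 19244 in gi roots and 7354 to 8198 in WT roots. It was 175215 to 216369 in pho2 shoots, 224675 to 270039 in gi shoots and 233319 to 279011 in WT shoots. The summed signal of the root markers was 32908 to 36505 in pho2 roots, 37981 to 42719 in gi roots and 36266 to 39671 in WT roots. It was 2054 to 3037 in pho2 shoots and 1935 to 2835 in gi shoots, below all WT shoots at 4225 to 5852. Array medians ran from 52.3 to 70.2, and the mean correlation of an array with its replicates from 0.955 to 0.985. Because these are whole organs, fewer cells of a type and less RNA per cell cannot be told apart in any result below.

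A change below is a difference of mean log2(signal + 16), the mutant less WT or root less shoot. It was tested with limma over 34355 probe sets, and a change was called at an adjusted p under 0.05. Between pho2 and WT roots, 2 of the 7 member probe sets tested were called, both higher in pho2, where 15.8% of all probe sets tested were called. Between pho2 and WT shoots, 1 of 8 was called, lower in pho2, against 28.6% of all. Between gi and WT roots, 0 of 7 were called by limma, 1 had an unadjusted p under 0.05, and 2.28% of all were called. Between gi and WT shoots, 1 of 8 was called, lower in gi, against 17.5% of all. Counts of 0 to 2 of so few probe sets do not set these genes apart from the rest of the array. The median change of the probe sets tested was 0.05 in pho2 roots, -0.10 in pho2 shoots, 0.15 in gi roots and -0.02 in gi shoots, beside 0.02, -0.01, 0.03 and -0.01 over all probe sets in the same order.

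**Figure D1:**
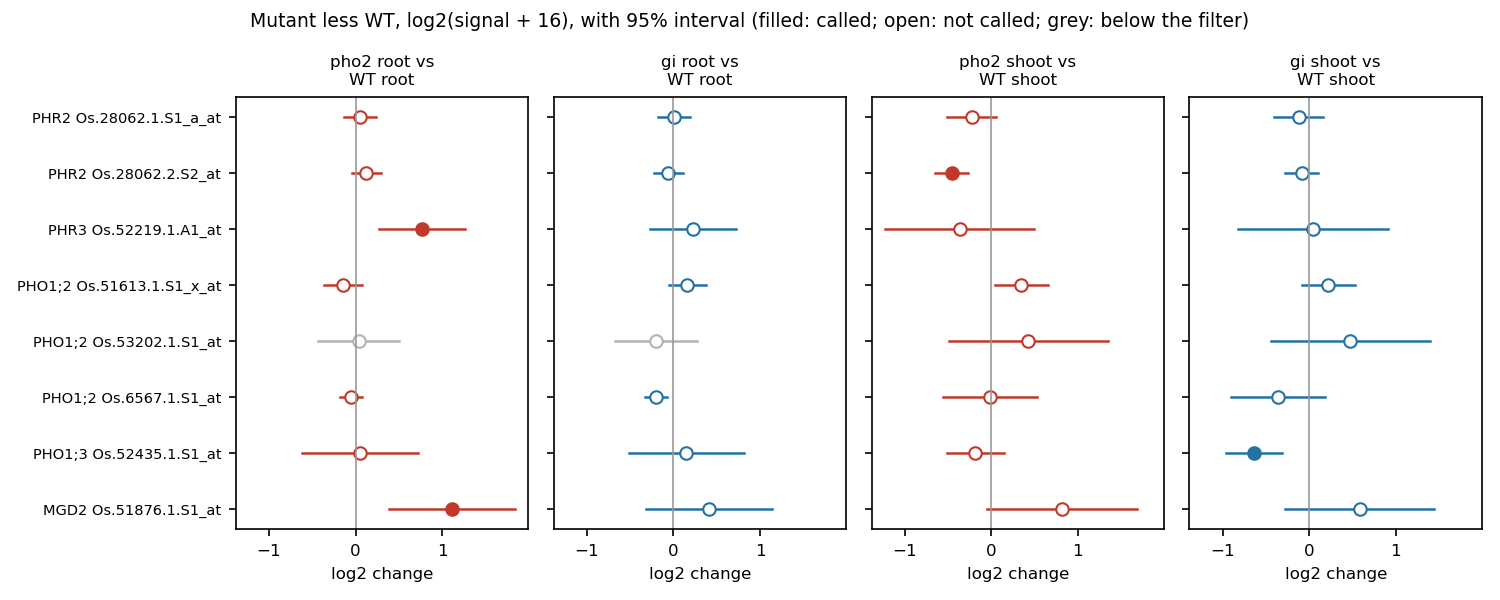
Log2 change of each member probe set (rows) in pho2 and gi roots and shoots against WT, with 95% intervals. Filled points were called by limma: PHR3 at 0.77 and MGD2 at 1.11 in pho2 roots, PHR2 at -0.46 in pho2 shoots and PHO1;3 at -0.64 in gi shoots.

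PHR2, the central activator of the rice Pi starvation response, was lower in pho2 shoots by its brighter probe set. Its signal was 1694, 1816 and 2016 in pho2 shoots, 2203, 2463 and 2484 in gi shoots, and 2641, 2512 and 2442 in WT shoots. All 3 pho2 arrays lay below all gi and all WT arrays, and the gi and WT arrays overlapped. PHR2 fell by 0.46 on the log2 scale in pho2 shoots against WT shoots (SE 0.0861, 95% interval -0.65 to -0.27), which is 0.728 of the WT level, with a limma adjusted p of 0.0017. Against gi shoots the change in pho2 shoots was -0.37, with a limma adjusted p of 0.0104, and PHR2 was the 1 member probe set of 8 called between these mutants, where 19% of all were called. Under scaling to hybridisation controls, described below, this difference was -0.035 (limma adjusted p 0.857) and was not called. The median of all probe sets was 0.30 in that setting.

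Roots showed no such difference. PHR2 had 2455, 2392 and 2379 in pho2 roots, 1981, 2178 and 2215 in gi roots, and 2435, 2073 and 2140 in WT roots. The pho2 and WT arrays overlapped, and the change was 0.12 (95% interval -0.05 to 0.29, limma adjusted p 0.316). The pho2 effect in root less that in shoot was 0.58 (SE 0.112, limma adjusted p 0.00087), tested as an interaction in the fit of all 18 arrays. In that test 2 of 7 member probe sets were called, 1 in each direction, against 29% of all.

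The value of PHR2 in pho2 shoots depended on how arrays were scaled. The hybridisation controls, bacterial transcripts of known amount added to each labelled sample, had a mean log2 signal of 12.45 ± 0.17 in pho2 shoots and 12.94 ± 0.03 in WT shoots (SD, n = 3). When arrays were scaled to these controls, a setting chosen after seeing the data, the PHR2 change in pho2 shoots was 0.03 (limma adjusted p 0.861) and the median change of all probe sets was 0.43. PHR2 thus lay 0.40 below that median, and whether it or the bulk of the transcripts differed per labelled amount was not tested. Under the same scaling the root-less-shoot difference of the pho2 effect was 0.14 (limma adjusted p 0.493), beside a median of -0.37 for all probe sets. Summed signals of both marker lists were also lower in pho2 shoots than in WT shoots, as given above. The GAPDH 3'-to-5' signal ratio (log2), a measure of RNA integrity, was 1.90 ± 0.24 in pho2 shoots, 2.66 ± 0.14 in gi shoots and 2.62 ± 0.09 in WT shoots (SD, n = 3), and the pho2 arrays lay below all others. The cyclophilin ratio overlapped, at 1.09 to 1.23 in pho2 shoots, 0.92 to 1.71 in gi shoots and 0.71 to 1.22 in WT shoots. The part of the markers and of these ratios in the PHR2 result was not tested.

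The dimmer PHR2 probe set gave no call in any of the 11 comparisons. Its signal was 564, 671 and 671 in pho2 shoots, 667, 658 and 723 in gi shoots, and 889, 731 and 633 in WT shoots. The groups overlapped because WT shoot replicate 3 lay within the pho2 range, and the pho2 change was -0.23 (95% interval -0.51 to 0.06, limma adjusted p 0.239). The 2 probe sets therefore had the same sign in pho2 shoots, and the interval of the dimmer one includes the -0.46 of the brighter one as well as 0.

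**Figure D2:**
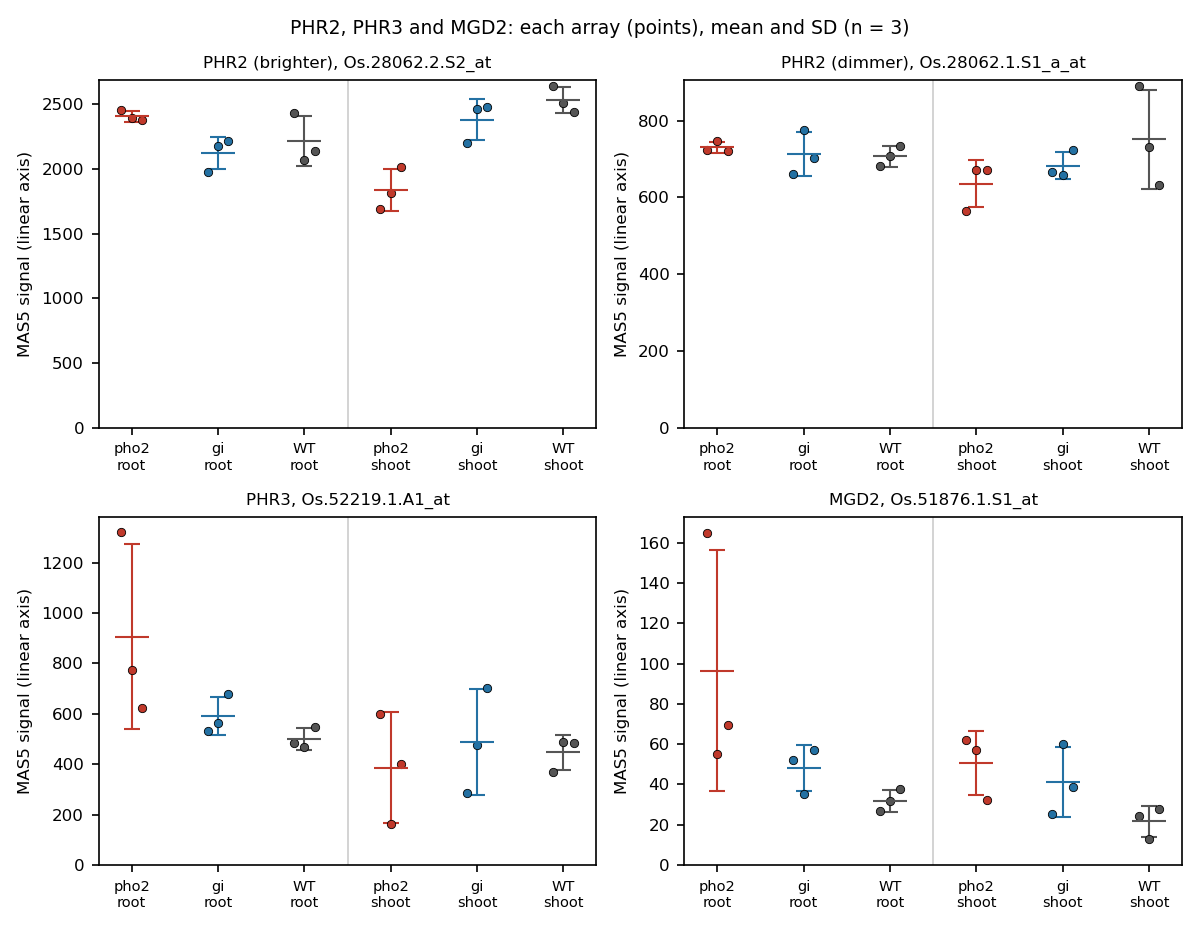
Signal of PHR2 (both probe sets), PHR3 and MGD2 on each array (points), with the mean and SD of 3 arrays; the vertical axes are linear and start at 0. PHR2 by its brighter probe set is lowest in pho2 shoots (1694 to 2016), and 1 pho2 root array lies far above the others for PHR3 (1322) and MGD2 (165).

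Between tissues of WT, PHR2 by its brighter probe set had all root arrays below all shoot arrays, with a change of -0.19 (limma adjusted p 0.0383). This call held in 5 of 13 alternative settings, and under scaling to hybridisation controls the sign turned, to 0.86, against a median of 1.05 for all probe sets. In pho2 plants the order was the other way: all root arrays lay above all shoot arrays, with a change of 0.39 (limma adjusted p 0.00034), called in all 13 alternatives. In gi plants the change was -0.16 (limma adjusted p 0.0768) and the arrays overlapped; without gi shoot replicate 1 it was called, at -0.22. Over the 6 groups WT shoots had the highest mean, 2531, and pho2 shoots the lowest, 1842, and no group stood clear of its neighbour in the order.

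PHR3, another PHR-type factor, was higher in pho2 roots on every array, with a wide spread. Its signal was 1322, 773 and 623 in pho2 roots, 532, 564 and 677 in gi roots, and 485, 468 and 548 in WT roots. The pho2 and WT arrays did not overlap, whereas pho2 and gi did. PHR3 rose by 0.77 on the log2 scale in pho2 roots against WT roots (SE 0.225, 95% interval 0.27 to 1.27), with a limma adjusted p of 0.0441. The value rests in part on 1 array: without pho2 root replicate 1 the change was 0.46 and was not called. The call held in 5 of 18 alternative settings, with adjusted p-values from 0.0175 to 0.227. Against gi roots, pho2 roots differed by 0.54 (95% interval 0.04 to 1.04, limma adjusted p 0.178); 0 of 7 member probe sets were called by limma between the mutants' roots, 4 had an unadjusted p under 0.05, and 7.54% of all were called.

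In shoots PHR3 was too variable to resolve a change. It had 598, 161 and 400 in pho2 shoots, 284, 478 and 703 in gi shoots, and 367, 490 and 482 in WT shoots, and all groups overlapped. The pho2 change was -0.37 with a 95% interval of -1.23 to 0.50 (limma adjusted p 0.565). Within pho2 plants PHR3 was higher in root than in shoot by 1.30 (limma adjusted p 0.00513), called in all 13 alternatives, while the difference in WT was 0.17 (limma adjusted p 0.702). The test of whether the pho2 effect differed between root and shoot gave 1.13 (95% interval 0.02 to 2.24), with a limma adjusted p of 0.122, so a difference between the tissues was not called. Without pho2 shoot replicate 1 it was called, at 1.53 (limma adjusted p 0.03).

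The exporter PHO1;2 was a root transcript by its brightest probe set. Its signal was 8918, 9041 and 8666 in pho2 roots, 8192, 7487 and 8335 in gi roots, and 9344, 9528 and 8733 in WT roots. In shoots it was 262, 309 and 296 in pho2, 356, 208 and 149 in gi, and 264, 331 and 286 in WT. Every root array lay far above every shoot array. Root exceeded shoot by 4.87 in pho2, 5.06 in gi and 4.90 in WT on the log2 scale, about 29.2-fold, 33.4-fold and 29.8-fold, with a limma adjusted p of 1.69e-13 in WT. Between WT tissues 4 of 7 member probe sets were called, 2 in each direction, where 71% of all probe sets were called, so a tissue difference as such is common on this array. Root and shoot arrays also stood apart in added bacterial controls. The mean signal of bioB, a hybridisation control, was 32.4 to 55.4 on root arrays and 592 to 941 on shoot arrays. The 3'-to-5' ratio of dap (log2) was 1.61 to 1.94 on root arrays and 2.64 to 3.20 on shoot arrays. The controls used for scaling had a mean log2 signal of 11.88 in WT roots and 12.94 in WT shoots, a difference of -1.06. The bioB signal, at means of 44.5 in WT roots and 913 in WT shoots, differed far more than that. How far control-scaled tissue values depend on the choice of controls was not tested. The part of bioB and dap in the tissue contrasts and interactions was not tested either. In pho2 plants 4 of 7 were called (3 higher in root) against 66.7% of all, and in gi plants 2 of 7 against 68.9%.

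Loss of PHO2 left the root level of PHO1;2 close to that of WT. The pho2 change in roots was -0.05 with a 95% interval of -0.18 to 0.08 (limma adjusted p 0.606), so a change larger than the bounds of that interval was not seen on these arrays. In gi roots all 3 arrays lay below all WT arrays, with a change of -0.20 (SE 0.0577, limma adjusted p 0.121), which was not called. In shoots, where the signal was low, the change was -0.02 in pho2 and -0.36 in gi, with 95% intervals of -0.56 to 0.52 and -0.91 to 0.18. The gi value rests on single arrays: it was -0.68 without gi shoot replicate 1, then called (limma adjusted p 0.0368), and -0.09 without gi shoot replicate 3.

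The other PHO1;2 probe sets did not share this pattern. The intermediate one, of a type in which some probes may match other sequences too, had 423, 443 and 477 in pho2 roots, 543, 541 and 586 in gi roots and 448, 539 and 505 in WT roots. It had 606, 444 and 519 in pho2 shoots, 481, 490 and 452 in gi shoots and 412, 353 and 455 in WT shoots. Levels were thus similar in both organs, and WT root exceeded WT shoot by 0.28 (limma adjusted p 0.0467), a call that held in 5 of 13 alternatives. The pho2 change was -0.14 in roots and 0.35 in shoots, neither of them called. The shoot change was called in 3 of 18 alternatives. Among them was scaling to hybridisation controls (0.81, beside a median of 0.43 for all probe sets). The interaction between root and shoot was -0.49 (limma adjusted p 0.0405), a call that held in 8 of 19 alternatives. The dim one lay at 6.86 to 19.9 in all root groups and 17.8 to 92.7 in all shoot groups, with shoot above root in each genotype. It fell below the intensity filter in roots and was tested in shoots alone, where the changes of 0.43 in pho2 and 0.48 in gi were not called. As background, the rice PHO1;2 locus is known to give an antisense transcript besides the mRNA. Which transcript or strand each probe set reads was not determined. The gene table lists a neighbour, LOC4331091, that overlaps PHO1;2 and has no paired probe set. It lists such a neighbour for PHR3 (LOC9271552) and PHO1;3 (LOC4341090) as well.

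**Figure D3:**
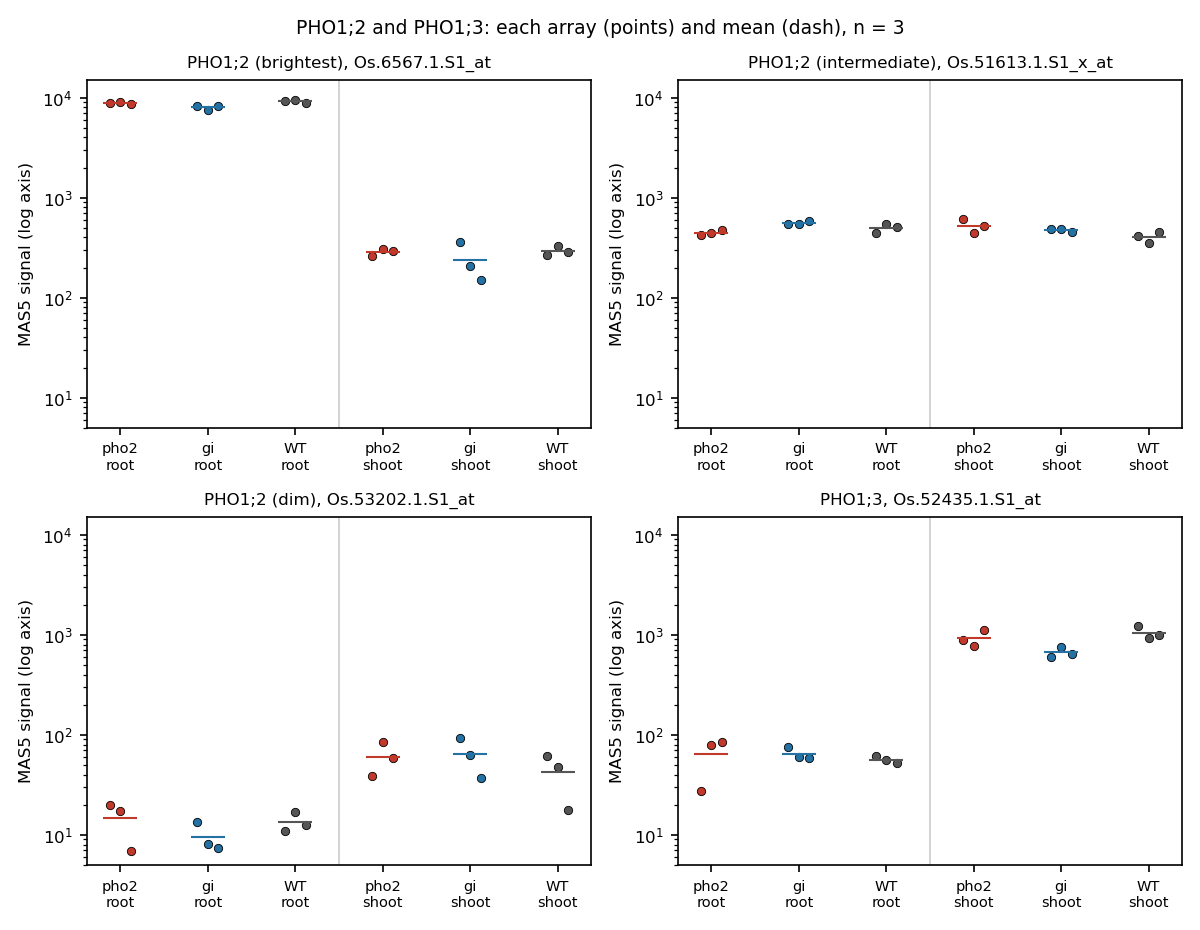
Signal of the 3 PHO1;2 probe sets and of PHO1;3 on each array (points) with the mean of 3 arrays (dash), on a log axis shared by the panels. The brightest PHO1;2 probe set sits at 7487 to 9528 in roots and 149 to 356 in shoots, PHO1;3 runs the other way, and the other PHO1;2 probe sets follow neither.

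PHO1;3, a paralogue of PHO1;2, had the opposite distribution and was the 1 member probe set to change in gi shoots. Its signal was 27.6, 79.7 and 85.6 in pho2 roots, 75.3, 59.5 and 59.0 in gi roots, and 61.6, 55.8 and 52.2 in WT roots. It was 884, 774 and 1118 in pho2 shoots, 598, 755 and 648 in gi shoots, and 1224, 921 and 1003 in WT shoots. The gi shoot arrays lay below all arrays of the other shoot groups, and the pho2 and WT shoots overlapped. PHO1;3 fell by 0.64 on the log2 scale in gi shoots against WT shoots (SE 0.15, 95% interval -0.96 to -0.31), to 0.643 of the WT level, with a limma adjusted p of 0.0115. The call held in 15 of 18 alternatives and was lost without WT shoot replicate 1 (-0.52), with all 18 arrays in the fit (-0.64) and under scaling to hybridisation controls (-0.48, limma adjusted p 0.0914). The root marker sums were lower than in WT shoots in gi shoots and also in pho2 shoots, where the PHO1;3 arrays overlapped those of WT. Of these markers, NAAT1 averaged 2386 in WT shoots, 1226 in pho2 shoots and 156 in gi shoots. The part of the markers in the PHO1;3 result was not tested.

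In pho2 shoots the PHO1;3 change was -0.18 (95% interval -0.51 to 0.14, limma adjusted p 0.421), and pho2 shoots exceeded gi shoots by 0.45 (limma adjusted p 0.0542), which was not called. Under scaling to hybridisation controls that difference was called, at 0.78 (limma adjusted p 0.00536), as was that of the brightest PHO1;2 probe set, at 0.65 (limma adjusted p 0.0492). The median of all probe sets was 0.30 in that setting. Less that median, the differences were 0.48 for PHO1;3 and 0.35 for PHO1;2. The PHO1;3 difference was also called without gi shoot replicate 2 (0.54) or pho2 shoot replicate 2 (0.57), and the PHO1;2 difference without gi shoot replicate 1 (0.66). In roots the gi change was 0.15, and the gi effect in root less that in shoot was 0.79 (95% interval 0.04 to 1.53, limma adjusted p 0.165). Of 7 member probe sets 0 were called by limma in that interaction, 1 had an unadjusted p under 0.05, and 12.2% of all were called. Root less shoot was -3.63 in pho2, -3.08 in gi and -3.87 in WT on the log2 scale, with a limma adjusted p of 1.94e-10 in WT. The pseudocount of 16 makes these folds smaller than those of the signals, because the root level is low. PHO1;1, the remaining member of the family, has no paired probe set and was not analysed here.

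MGD2, a monogalactosyldiacylglycerol synthase, was dim on every array and higher in pho2 roots. Its signal was 165, 55.0 and 69.6 in pho2 roots, 52.1, 35.4 and 57.3 in gi roots, and 26.6, 31.6 and 37.6 in WT roots. The pho2 and WT arrays did not overlap, whereas pho2 and gi did, and again pho2 root replicate 1 was the highest. MGD2 rose by 1.11 on the log2 scale in pho2 roots (SE 0.328, 95% interval 0.38 to 1.84), with a limma adjusted p of 0.0449. The call held in 4 of 18 alternatives, and without pho2 root replicate 1 the change was 0.71 and not called. That array carried the extreme value for PHR3, MGD2 and PHO1;3 among pho2 roots, while its mean correlation with its replicates, 0.984, was within the range of the other root arrays. The GAPDH 3'-to-5' ratio was 2.24 ± 0.13 (log2) in pho2 roots and 1.70 ± 0.23 in WT roots (SD, n = 3), whereas the cyclophilin ratio was 1.02 to 1.17 in pho2 roots and 1.12 to 1.25 in WT roots. The part of RNA integrity in these root results was not tested. Against gi roots, MGD2 in pho2 roots differed by 0.70 (95% interval -0.03 to 1.43, limma adjusted p 0.23), which was not called.

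In shoots MGD2 had 62.2, 57.2 and 32.5 in pho2, 25.3, 60.0 and 38.5 in gi, and 24.4, 12.9 and 27.8 in WT. All pho2 shoot arrays lay above all WT shoot arrays, but the change of 0.81 was not called (95% interval -0.05 to 1.68, limma adjusted p 0.158). Under scaling to hybridisation controls it was called, at 1.04 (limma adjusted p 0.0457), where the median of all probe sets was 0.43. The pho2 effect did not differ detectably between the tissues, at 0.30 with a 95% interval of -0.73 to 1.33. In gi plants the changes were 0.41 in roots and 0.58 in shoots, with intervals that include 0. The signal of MGD2 lay near the array medians or below them on all but a few arrays, where a log2 change is less precise than at high signal.

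Of 13 names listed for galactolipid and sulfolipid synthesis, 3 could be used: MGD2, MGD1 and MGD3. The other names matched no gene name in the tables used, so those genes were not analysed here. MGD1 and MGD3 were not called against WT in either mutant as measured. Both were called in pho2 shoots under scaling to hybridisation controls (0.53 and 0.45, beside a median of 0.43 for all probe sets). Whether their changes differ from that of MGD2 was not tested. MGD3 averaged 2969 ± 129 in pho2 roots and 2496 ± 132 in WT roots (SD, n = 3), a change of 0.25 (limma adjusted p 0.0897). All pho2 root arrays of MGD3 lay above all WT root arrays, and the change was called in 2 of 18 alternatives. Against gi roots, MGD3 was called higher in pho2 roots, by 0.40 (limma adjusted p 0.0267). MGD1, the synthase best known from chloroplasts, averaged 1788 ± 24.3 in pho2 roots and 2033 ± 45.8 in WT roots, a change of -0.18 (limma adjusted p 0.0643). In WT, root exceeded shoot by 1.58 for MGD3, whereas MGD1 was lower in root, with a change of -0.34. Under scaling to hybridisation controls the sign for MGD1 turned, to 0.71, beside a median of 1.05 for all probe sets.

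PHR1, the third PHR gene measured, was not called in either mutant. It averaged 1760 ± 115 in pho2 shoots, 1739 ± 33.5 in gi shoots and 2024 ± 77.9 in WT shoots (SD, n = 3), with changes of -0.20 in pho2 (limma adjusted p 0.0727; -0.25 and called without pho2 shoot replicate 1) and -0.22 in gi (limma adjusted p 0.075). The roots differed less, by 0.03 in pho2 and -0.01 in gi. Like PHR2, PHR1 was thus lower in the mutant shoots by its mean. As for PHR2, the sign turned in pho2 shoots under scaling to hybridisation controls. The PHR1 change was then 0.29, beside a median of 0.43 for all probe sets.

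Upstream and downstream genes of the pathway were read from 7 lists of 81 names, of which 21 genes other than the members could be used. Most of the other names matched no gene name in the tables used. Of the genes used, 9 were PHT1 transporters and 5 SPX genes. Only 2 of 18 names of other Pi signalling and 2 of 21 of phospholipid breakdown could be used, so the counts do not survey the whole pathway. In pho2 roots 18 of the 21 genes were tested, 5 were called higher and 1 lower, with a median change of 0.14. Of all probe sets tested 15.8% were called there, with a median of 0.02. The Pi transporters PHT1;1, PHT1;2 and PHT1;4 rose by 0.99, 2.15 and 1.13, and the PHR inhibitor SPX1 and its relative SPX5 rose by 1.25 and 2.14, while SPX2 fell by 3.20. All 6 were called in all 18 alternatives, with limma adjusted p-values from 3.64e-05 to 0.00222. PHR2, which acts on such genes, and PHO1;2 were not called in the same roots. PHT1;4 and SPX5 were read by probe sets of the type in which some probes may match other sequences too. PHT1;1 and SPX5 have 2 probe sets each, of which the brighter is given.

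In pho2 shoots 14 of the 21 were tested, 2 were called higher and 4 lower, with a median change of -0.17. Of all probe sets tested 28.6% were called there, with a median of -0.01. The transporter PHT1;8 rose by 1.54 and the phospholipase D gene PLD2 by 0.75. The inhibitors SPX1, SPX2 and SPX4 fell by 0.76, 0.58 and 0.47 beside PHR2, and PLD1 fell by 0.28. PLD1 was not called under quantile normalization either (-0.13). Under scaling to hybridisation controls none of these 4 was called, and the sign turned for SPX4 (0.01) and PLD1 (0.21), as it did for PHR2. The median of all probe sets was 0.43 in that setting. Less that median, SPX1, SPX2, SPX4 and PLD1 were at -0.70, -0.52, -0.41 and -0.21. PHT1;8 and PLD2 were called under that scaling as well. PHT1;8 and SPX4, with 3 and 2 probe sets, are given by their brightest. Both of these are of the type in which some probes may match other sequences too.

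In gi roots 0 of 18 list genes were called by limma, and 3 had an unadjusted p under 0.05. In gi shoots 1 of 14 was called higher and 3 lower. Of all probe sets tested, 2.28% were called in gi roots and 17.5% in gi shoots. Counts this small do not set the list genes apart from the array. PLD2 rose by 0.67, and SPX1, SPX4 and PHT1;1 fell by 0.45, 0.46 and 0.54. None of those that fell was called under scaling to hybridisation controls, while PLD2 was. Less the median of all probe sets in that setting, 0.12, SPX1, SPX4 and PHT1;1 were at -0.42, -0.43 and -0.51. The calls of SPX1, SPX4 and PHT1;1 held in 12, 16 and 9 of 18 alternatives. PHO1;3 was thus called lower in gi shoots together with these genes. The pho2 and gi comparisons share the WT arrays of each tissue, so their values are given side by side only.

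**Figure D4:**
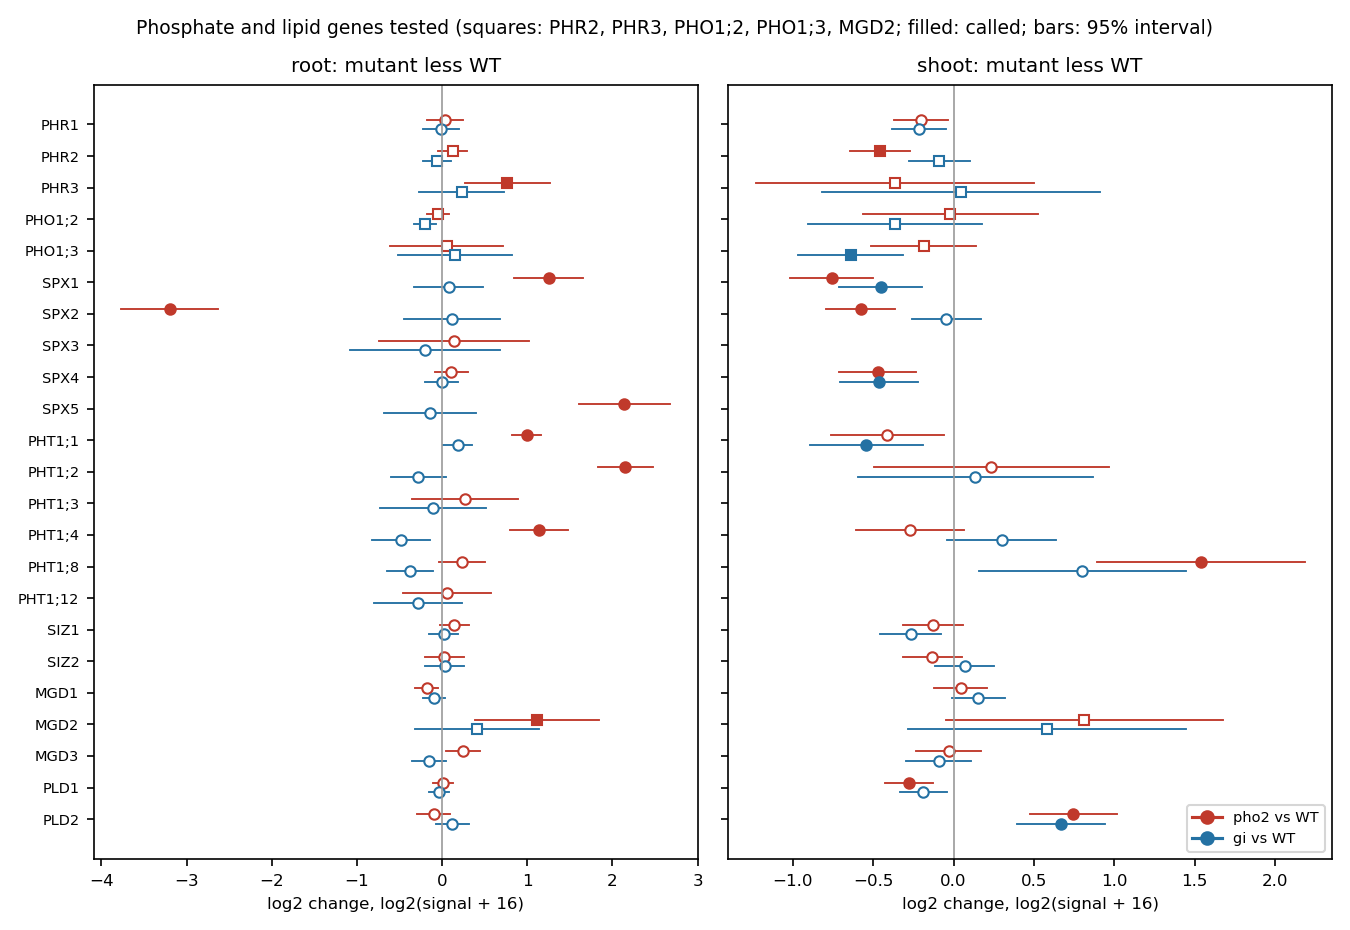
Log2 change of 23 phosphate and lipid genes in root (left) and shoot (right), pho2 (red) and gi (blue) each against WT, with 95% intervals; squares are PHR2, PHR3, PHO1;2, PHO1;3 and MGD2, and filled symbols were called. PHT1;2 (2.15) and SPX5 (2.14) are highest and SPX2 (-3.20) lowest in pho2 roots, and the members lie closer to 0. The horizontal axes differ between the panels.

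For each member, the named genes with the most similar pattern were found by Pearson's r over the 18 arrays, after subtracting the mean of each tissue, among 2563 probe sets. PHR2 was closest to C3H33 (r = 0.94), arf1 (0.91) and HIRL1 (0.89), and 34 probe sets exceeded 0.8. PHR3 was closest to TULP2 (0.80), MPH1 (0.72) and ERG1 (0.72). PHO1;2 was closest to HPT1 (0.76), DI19-2 (0.75) and BGLU13 (0.72), of which HPT1 and BGLU13 rest in part on single arrays: leaving out 1 array brought r as low as 0.498 for HPT1 and 0.507 for BGLU13. PHO1;3 was closest to IAA1 (0.70), TBL13 (0.69) and ADCS (0.68). MGD2 was closest to PP2C58 (0.77), RH2 (0.76) and NH3 (0.73). For these 4 genes 0 probe sets exceeded 0.8. All points share the arrays and their scaling, and the values are a description, without a test.

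**Figure D5:**
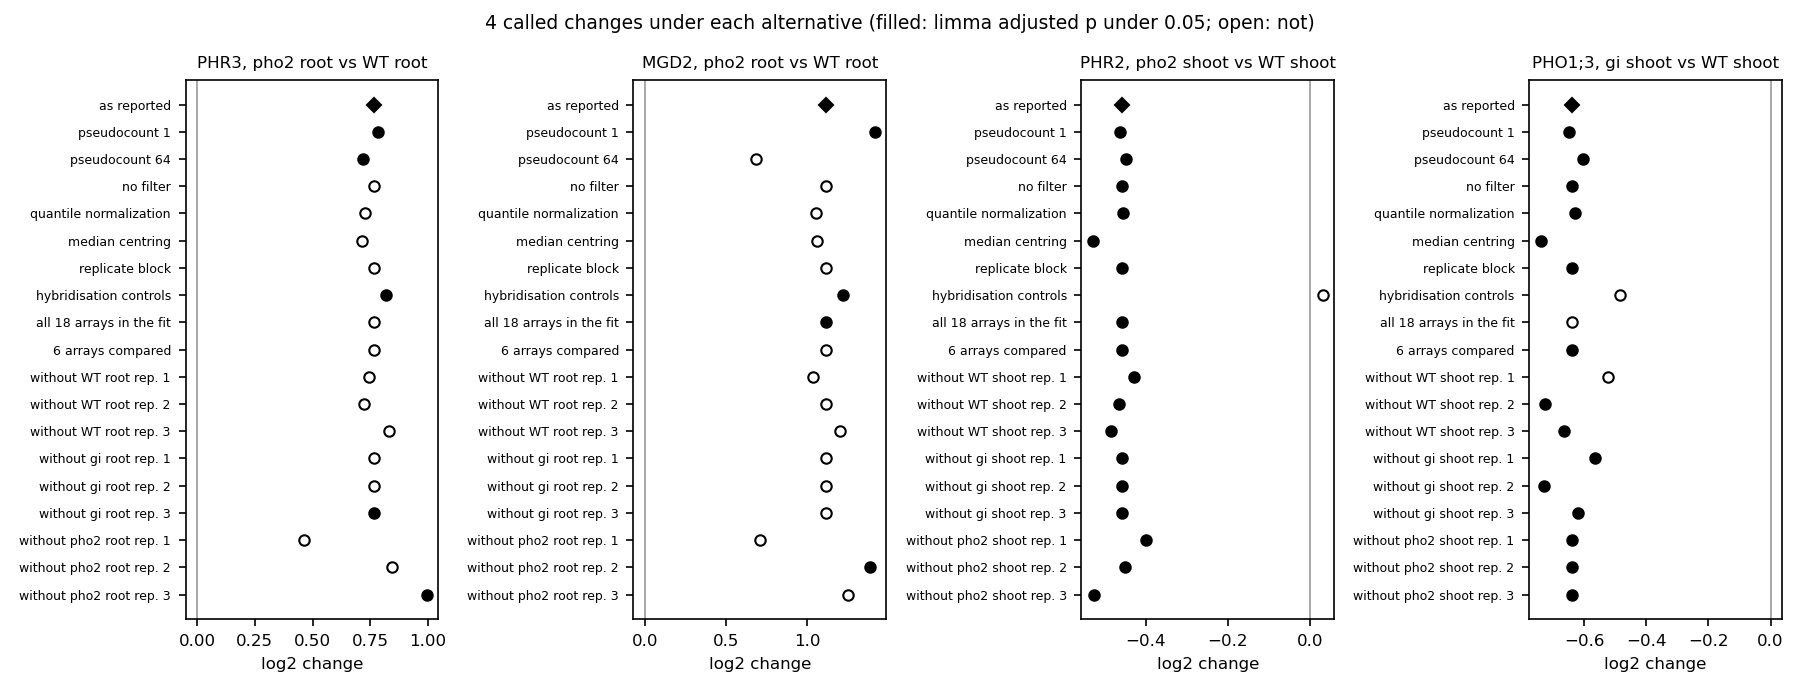
Log2 change of the 4 called mutant results as reported (diamond) and under each alternative setting (circles), filled where the limma adjusted p was under 0.05. PHR2 in pho2 shoots is called in 17 of 18 alternatives and PHO1;3 in gi shoots in 15, whereas PHR3 and MGD2 in pho2 roots are called in 5 and 4.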

How the data were processed

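The submitters deposited 1 MAS5 signal (linear intensity) per probe set and array, per their processing notes; which MAS5 version and options were used is not given in the sources used here. RNA was extracted and hybridised as biotin-labelled cRNA per the labels' protocols. The trimmed mean of every deposited intensity column was close to 500. The table holds 57381 probe sets; 123 controls were left out. No columns were identical.

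Values were taken as log2(signal + 16) and fitted in limma 3.58.1 (R 4.3.3; lmFit, eBayes with intensity trend), 9 arrays per tissue together, or all 18 for tissue contrasts and interactions. Probe sets under the 40th percentile of mean level were dropped, which left 34355. Tests were two-sided with Benjamini-Hochberg adjustment. Scripts were tested on simulated data. There is no read depth here; the number of arrays limits the precision. Detection calls were not used.

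Groups and replicate numbers came from sample titles. The numbers did not pair arrays: same-numbered arrays of a tissue correlated from -0.12 to 0.13 in their deviations from group means, and 1 of 9 root and 0 of 9 shoot pairs exceeded 0.1. Names came from the platform annotation and a RefSeq gene table (symbol, or synonym where the symbol was a locus number). A gene with several probe sets is given by the brightest, apart from the members. The members, lists and tests were chosen with earlier results of these data known. Named are the members, GI, the 3 named genes most like each member, and called list genes (at most 4 of a list per pho2 comparison); MGD1, MGD3, PHR1 and gi values of list genes were added after their values were seen.

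Alternatives were pseudocounts of 1 and 64, no filter, quantile normalization, median centring, a replicate block, all 18 or only 6 arrays in a fit, each array left out and, added after seeing the data, scaling to 6 hybridisation control probe sets. No protein, promoter or genome sequence was used.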

Additional observations from a re-analysis of the deposited data

Results flagged for a closer look

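The pho2 effect on PHR2 by its brighter probe set differed between the organs by a test of the interaction, 0.58 in root less shoot (limma adjusted p 0.00087). The effect was 0.12 in roots and -0.46 in shoots, and under scaling to hybridisation controls the difference was 0.14. The dimmer PHR2 probe set gave 0.27 in the same test (limma adjusted p 0.22).

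The pho2 effect on PHO1;2 by its intermediate probe set also differed between the organs by the interaction, -0.49 (limma adjusted p 0.0405), from -0.14 in roots and 0.35 in shoots. For the brightest PHO1;2 probe set the same difference was -0.03 (limma adjusted p 0.948).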

How the results depend on the processing

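Of 1732 values of 101 single results under alternative settings, 1573 kept their sign and their side of the threshold, 80 lost a call, 19 gained one and 60 changed sign, of which 51 were called in neither setting; causes were not tested. The member probe sets called in pho2 roots numbered 2 as reported, 0 with no filter, quantile normalization, median centring, the replicate block or 6 arrays, 1 with a pseudocount of 64 or all 18 arrays, and 0 to 1 with an array left out. In pho2 shoots 2 were called under control scaling (the intermediate PHO1;2 probe set and MGD2) or with all 18 arrays (1 as reported; 1 to 2 with an array left out). In gi shoots 0 were called in both settings (0 to 2). Between pho2 and gi shoots 0 were called with median centring and 2 under control scaling, PHO1;2 and PHO1;3 in place of PHR2 (1 to 2). Between WT tissues 2 were called with quantile normalization, median centring or the replicate block and 7 under control scaling, as also within pho2 and within gi (2 to 4 in WT). In the pho2 interaction 1 was called with no filter, quantile normalization, median centring or control scaling (1 to 2). The replicate block changed no other count of member calls by over 1.5 times.

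Scaling to hybridisation controls moved the median of all probe sets in pho2 and gi shoots against WT to 0.43 and 0.12, in pho2 against gi shoots to 0.30, between tissues to 0.68 in pho2, 0.94 in gi and 1.05 in WT, and in the pho2 and gi interactions to -0.37 and -0.15. The share of calls that were higher was 93.7% in pho2 shoots (50.3% as reported), 81.4% in gi shoots (51.2%), 89.7% between pho2 and gi shoots (51.4%), 83.2% between their roots (51.8%), 63.7% in pho2 roots (50.3%), 35.3% in gi roots (51.3%), 83.3% between WT tissues (55.2%), 77.4% in pho2 (56.9%), 81.8% in gi (59.1%), and 12.2% and 14.4% in the interactions (48.7% and 51.9%). Median centring gave 37.8% in pho2 roots, 40.5% in gi shoots, 33.4% in gi roots and 65.7% between pho2 and gi roots, and a fit of all 18 arrays gave 64.3% in gi roots.

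Signs turned under control scaling for the brighter PHR2 probe set in pho2 (0.030) and gi shoots (0.065) and between WT (0.86) and gi tissues (0.67). They turned for the dimmer PHR2 probe set in pho2 shoots (0.25), gi roots (-0.062), gi shoots (0.028), pho2 against gi shoots (0.22), WT tissues (0.96) and the interaction (-0.16). In pho2 shoots they turned for PHR3 (0.11), the brightest PHO1;2 probe set (0.44), PHO1;3 (0.30; interaction -0.21), PHR1 (0.29), SPX4 (0.010), MGD3 (0.45) and PLD1 (0.21), in gi shoots for MGD3 (0.059), between pho2 and gi shoots for the dim PHO1;2 probe set (0.20), and between WT tissues for PHR1 (0.32) and MGD1 (0.71). Median centring turned the dimmer PHR2 probe set in pho2 (-0.0062) and gi roots (-0.092), PHR3 in gi shoots (-0.055), PHO1;3 (-0.00027) and PHR1 (-0.020) in pho2 roots and MGD1 in pho2 shoots (-0.025). Quantile normalization turned the dimmer PHR2 probe set in gi roots (-0.022), PHR3 in gi shoots (-0.0033) and between WT tissues (-0.099), and the brightest PHO1;2 probe set in pho2 roots (0.023) and the interaction (0.18).

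With an array left out, signs turned only in results not called. The dimmer PHR2 probe set ran from -0.052 to 0.059 in gi roots, -0.24 to 0.0041 in gi shoots, -0.013 to 0.098 in pho2 against gi roots and -0.19 to 0.054 between WT tissues, and the brighter one from -0.10 to 0.011 in gi roots. PHR3 ran from -0.76 to 0.14 in pho2 shoots, -0.25 to 0.38 in gi shoots and -0.81 to 0.093 between them. Further ranges were -0.31 to 0.20 for the dim PHO1;2 probe set in pho2 against gi shoots, -0.089 to 0.065 in pho2 shoots and -0.12 to 0.037 in the interaction for the brightest one, -0.16 to 0.45 in pho2 roots and -0.31 to 0.30 against gi roots for PHO1;3, and -0.11 to 0.57 for MGD2 in the interaction. They were -0.033 to 0.11 in pho2 and -0.061 to 0.042 in gi roots for PHR1, and in pho2 shoots -0.0021 to 0.073 for MGD1 and -0.067 to 0.017 for MGD3. MGD2 and the dim PHO1;2 probe set lie near or below the array medians, where signal over background limits the precision.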
